A study of Rattus norvegicus with 125 samples.

Results

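Rat liver 6 h after inhalation of phosphine (PH3) was compared with rat liver 6 h after exposure to air. The samples were the 4 liver arrays labelled PH3 at 6 h and the 4 labelled Air at 6 h, which is 8 of the 125 arrays of the series, with 1 array per rat. On these arrays, 19069 of 31139 probe sets had 1 gene symbol in the platform annotation, and they stood for 13439 genes, each represented by 1 probe set, the brightest on average in liver where a gene had several. The PH3 rats inhaled 387 ppm in a whole-body chamber over 40 min, which makes 15480 ppm × min and which the series text sets at 0.67 of the median lethal product. The Air rats breathed 0 ppm for 40 min. Both groups were adult male Sprague-Dawley rats, for which the labels name no genetic change or other treatment, and both were killed by bleeding under ketamine and xylazine. RNA came from powdered frozen liver and was labelled from the 3' end for Affymetrix arrays. The same study also profiled brain, heart, kidney and lung, and 3 liver arrays from PH3 rats at 3 h, for which no Air liver at 3 h was analysed here. Time of day at death and food intake after the exposure were not given in the sources used here.

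Phosphine, used to fumigate stored grain, blocks the respiratory chain of mitochondria at complex IV (cytochrome c oxidase) and raises oxidative stress in cells. Hepatocytes are rich in mitochondria, where fatty acids and many amino acids are broken down and where the urea cycle begins. Nearly all proteins of the mitochondrion are encoded in the nucleus, made in the cytosol and brought in through translocases of the outer and inner membranes, while a mitochondrial RNA polymerase and mitochondrial ribosomes express the few genes of the organelle's own DNA.

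The arrays carried the liver label in their expression. The 19 measured hepatocyte markers, such as Alb and Apoa1, averaged 13.04 to 13.11 on the log2 scale in PH3 livers and 13.06 to 13.12 in Air livers, against at most 9.88 on any array of another tissue. Array medians lay between 5.09 and 5.15. Within a group, an array correlated with the others of its group at a mean r of 0.986 to 0.989 in PH3 livers and at 0.990 in Air livers, over genes, which are not independent replicates. The difference of 3' and 5' beta-actin probe sets, a sign of RNA breakdown or incomplete labelling, was 3.31 ± 0.30 in PH3 livers and 3.03 ± 0.11 in Air livers on the log2 scale (SD, n = 4 each; exact permutation test, two-sided, p = 0.2). For GAPDH it was 1.10 ± 0.19 in PH3 livers and 0.861 ± 0.10 in Air livers (exact p = 0.114, adjusted over the 2 measures 0.2, smallest possible p 0.0286). By array, PH3 rat 140 had 2.91 for actin, just below the Air range of 2.93 to 3.19, and 0.856 for GAPDH, within the Air range of 0.708 to 0.933. The other 3 PH3 livers lay above every Air liver on both measures, at 3.24 to 3.59 and 1.06 to 1.31. The 23 control probe sets for nonspecific binding had medians of 3.34 to 3.45 over the 8 arrays and maxima of 5.54 to 6.26, so that levels below about these maxima are not clearly apart from nonspecific signal.

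The liver response that passed the test was small in number in the fit of the liver arrays. Agxt, an aminotransferase, was first by p among genes that rose, and Rarres1, a retinoid-responsive gene, first among those that fell. Of 13439 genes tested with limma, 32 passed a Benjamini-Hochberg adjusted p under 0.05, which is 0.238% of the genes tested; 25 rose after PH3 (0.186%) and 7 fell (0.0521%). Absolute log2 changes among them ran from 0.36 to 2.49, and in all 32 the 4 PH3 arrays did not overlap with the 4 Air arrays, a separation found upwards in 5.69% and downwards in 3.91% of all genes tested. At an unadjusted p under 0.05 there were 1895 genes (14.1%), with 1039 higher (7.73%) and 856 lower (6.37%) in PH3 livers. The smallest adjusted p was 0.0042, for Agxt. Only Agxt and Rarres1 passed in every one of the 8 fits that left out 1 array, in which 2 to 64 genes passed. There were 64 without PH3 rat 140, 14 without Air rat 126, 9 without Air rat 138, 6 without PH3 rat 134, 3 without PH3 rat 141 and 2 without PH3 rat 128, Air rat 132 or Air rat 156. PH3 rat 140 was the PH3 array nearest the Air arrays for 14 of the 25 genes that rose, and it was also the PH3 array with 3' to 5' differences like those of Air livers. The part of this RNA measure in the genes and lists that were higher or lower was not tested. A fit over the 8 arrays at 6 h alone, without the 3 h arrays, passed 161 genes, all 32 among them, while a fit without a trend of the variance in signal passed 1. For the same liver contrast, a fit over 32 arrays of 4 tissues at 6 h passed 490 genes (3.65%), so the number depends on the fit.

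**Figure D1:**
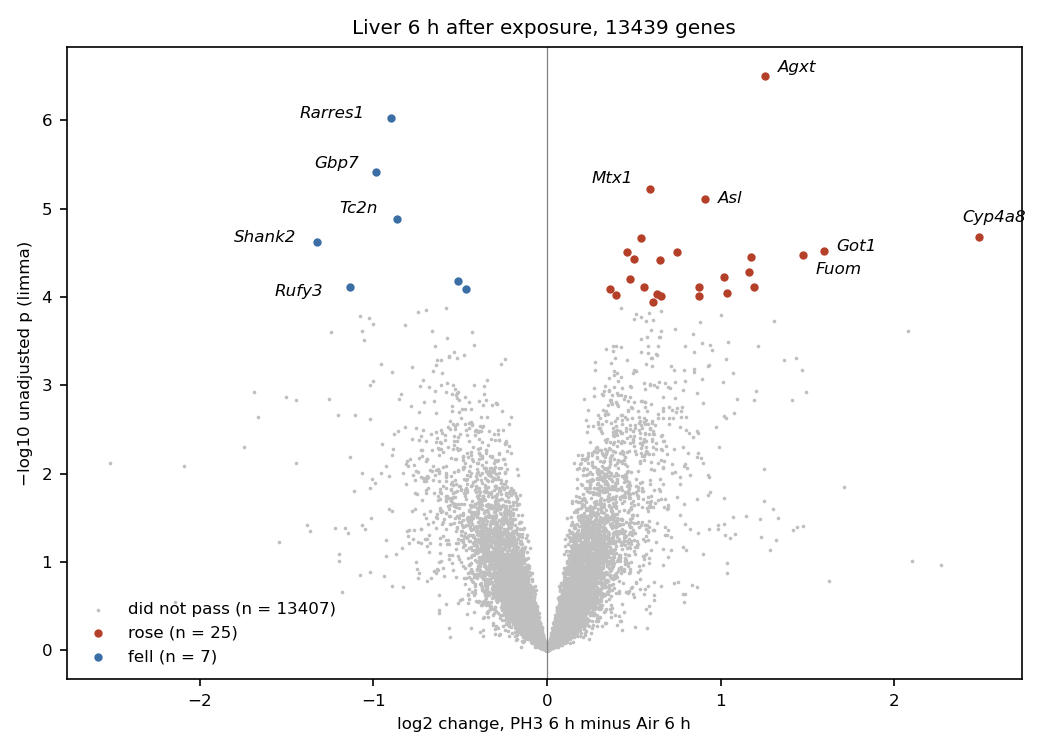
The log2 change in liver (PH3 6 h minus Air 6 h, x axis) is plotted against −log10 of the unadjusted limma p (y axis) for each of 13439 genes. The 25 genes that rose (red) reach further in change than the 7 that fell (blue), with Cyp4a8, whose Air level is near nonspecific signal, at 2.49, and Agxt and Rarres1 have the smallest p of each side.

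Among the 42 measured genes of the urea cycle and amino acid breakdown, 5 rose and 0 fell, namely Got1, Agxt, Asl, Aass and Cbs. The median log2 change of the 42 was 0.14, against 0.0067 over all genes tested. At an unadjusted p under 0.05, 16 of them (38.1%) were higher and 5 (11.9%) lower, with 3 lower without Air rat 156. Of all genes tested, 7.73% were higher and 6.37% lower at that threshold, and the counts for lists below stand against these shares.

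Agxt encodes alanine-glyoxylate aminotransferase, which removes glyoxylate by passing an amino group from alanine. Its log2 signal was 11.13, 10.76, 11.04 and 10.73 in PH3 rats 128, 134, 140 and 141, against 9.96, 9.37, 9.57 and 9.73 in Air rats 126, 132, 138 and 156, and values below are in the same order of rats. Every PH3 liver was above every Air liver, with a gap between the groups that exceeded the spread within either. The change was 1.26 ± 0.13 (SE), or 2.39-fold, with an adjusted p of 0.0042 that stayed between 0.001 and 0.026 when any 1 array was left out.

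Got1, the cytosolic aspartate aminotransferase of the malate-aspartate shuttle, had 12.06, 11.81, 11.98 and 12.47 in PH3 livers, against 11.21, 10.06, 10.50 and 10.17 in Air livers. Air rat 126 was the highest of its group and still below all PH3 livers. The change of 1.59 ± 0.26, or 3.02-fold, had an adjusted p of 0.032, which reached 0.154 with 1 array left out.

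Asl encodes argininosuccinate lyase, the urea cycle enzyme that releases arginine. Asl had 11.93, 12.03, 11.80 and 12.17 in PH3 livers and 10.99, 11.04, 11.13 and 11.12 in Air livers, so that the Air values were tightly grouped. Its change was 0.91 ± 0.13 (adjusted p = 0.021), and its second probe set, in a fit over all probe sets, gave 1.04 ± 0.17 (adjusted p = 0.033). Aass, the first enzyme of lysine breakdown in mitochondria, had 12.08, 11.74, 11.72 and 12.00 in PH3 livers and 11.42, 10.85, 11.13 and 11.14 in Air livers, a rise of 0.75 ± 0.12 (adjusted p = 0.032). Cbs, cystathionine beta-synthase, which draws homocysteine towards cysteine, had 11.75, 11.61, 11.40 and 11.72 in PH3 livers and 11.03, 10.79, 11.16 and 11.07 in Air livers (change 0.61 ± 0.11, adjusted p = 0.048). Got1, Asl, Aass and Cbs each lost the call in at least 5 of the 8 fits without 1 array.

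Other enzymes of the urea cycle did not pass. Values chosen after they were seen show how far they differed from Asl. Ass1, which makes the substrate of Asl, was 0.21 ± 0.07 higher (adjusted p = 0.18), Arg1, which releases urea, was 0.35 ± 0.12 higher (adjusted p = 0.18), and Cps1, which starts the cycle, was 0.13 ± 0.09 higher (adjusted p = 0.57). Otc, ornithine transcarbamylase, was lower in the mean by 0.33 (log2 difference -0.33 ± 0.11, adjusted p = 0.19). Hal, the histidine ammonia-lyase, lay just outside the threshold at 0.66 ± 0.12 (adjusted p = 0.053), with 10.43, 10.52, 10.47 and 10.61 in PH3 livers and 9.87, 9.71, 9.74 and 10.08 in Air livers.

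**Figure D2:**
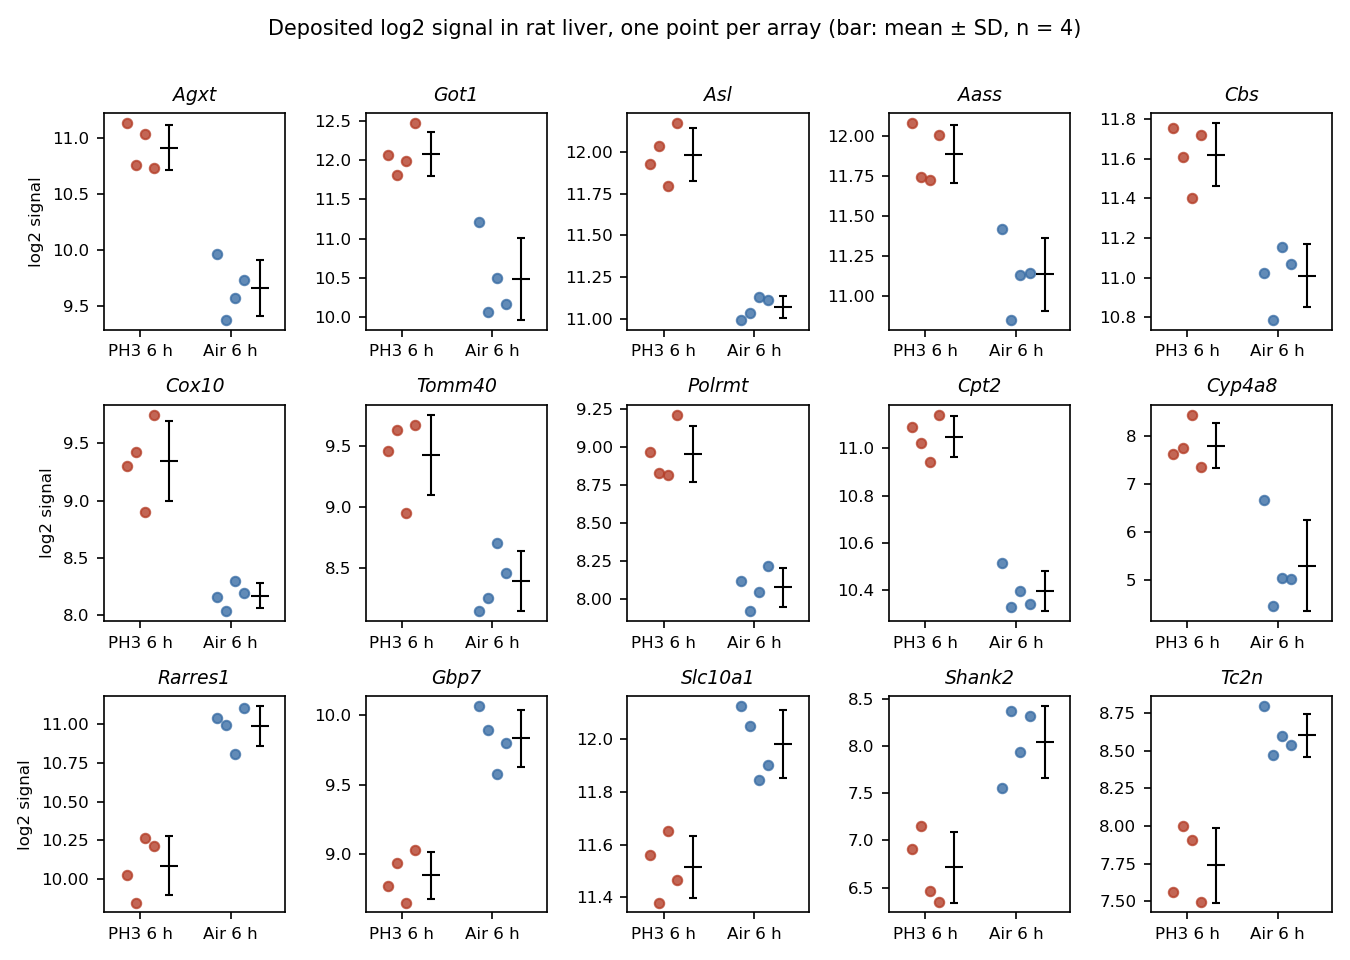
Deposited log2 signal (y axis, a separate scale for each gene) of 15 genes is drawn for the 4 PH3 livers (red, left) and the 4 Air livers (blue, right), with the mean ± SD beside each group. The groups are apart in each panel. Air rat 126 is the highest Air value for Agxt, Got1, Aass, Cpt2 and Cyp4a8, which rose, and for Gbp7, Slc10a1 and Tc2n, which fell.

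Of the 25 genes that rose, 13 were grouped by hand, after the values were seen, as encoding proteins known to work in the mitochondrion. Agxt was not placed in this group, and whether others of the 25 also work there was not examined. The share of mitochondrial genes among all genes tested was not counted, so nothing is read from the number. By role they are Tomm40, Tomm5 and Mtx1 at the outer membrane, Polrmt, Mrpl12 and mrpl11 in mitochondrial gene expression, Cox10 and Glrx5 in cofactor assembly, Dlst and Kgd4 of the 2-oxoglutarate dehydrogenase complex, Slc25a3 and Cpt2 of the inner membrane, and Aass in the matrix.

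The promoters of 4 genes of this group are shown because these genes rose and the stretch before each start holds the same letters, CCGGAAG or its reverse complement CTTCCGG, the core that ETS-family factors bind, printed in capitals. They are the 150 bases before the RefSeq start on build GRCr8, 5' to 3' on the gene's strand, for Cpt2 (chr5:127910819-127910968, minus strand), Dlst (chr6:110489556-110489705, plus strand), Polrmt (chr7:10610046-10610195, plus strand) and Slc25a3 (chr7:27506628-27506777, minus strand).
Cpt2: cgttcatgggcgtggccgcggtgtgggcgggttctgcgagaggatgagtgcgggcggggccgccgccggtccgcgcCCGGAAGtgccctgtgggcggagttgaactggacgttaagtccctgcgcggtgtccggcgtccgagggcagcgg
Dlst: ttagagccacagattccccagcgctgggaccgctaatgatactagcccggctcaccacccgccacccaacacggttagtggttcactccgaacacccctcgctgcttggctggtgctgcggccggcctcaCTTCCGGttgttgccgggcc
Polrmt: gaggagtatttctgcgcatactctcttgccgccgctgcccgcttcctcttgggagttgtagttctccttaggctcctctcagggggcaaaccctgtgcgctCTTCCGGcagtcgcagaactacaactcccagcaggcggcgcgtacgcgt
Slc25a3: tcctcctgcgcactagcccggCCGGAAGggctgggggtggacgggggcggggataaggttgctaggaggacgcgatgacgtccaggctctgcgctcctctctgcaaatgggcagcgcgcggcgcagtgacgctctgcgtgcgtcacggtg
The first base of the match in reading order lies 74 bases before the start in Cpt2, 20 in Dlst, 49 in Polrmt and 129 in Slc25a3. In windows of 300 bases, 250 before and 50 after the start, these 4 were the matches among the 23 genes that rose and had a promoter in the RefSeq table (17.4%), against 1727 of 11090 genes tested with a promoter (15.6%) and 2927 of 33469 promoters of the whole table (8.75%). The share among the genes that rose was thus near that of the genes tested. Of the 5 genes that fell and had a promoter, 0 held the letters. The NRF1 motif, searched on both strands like the ETS letters, was in 2 of the 23 genes that rose (8.70%) and in 8.67% of genes tested. A match is a run of letters and does not show that a factor is bound.

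At the outer membrane, Tomm40 encodes the pore through which nearly all imported proteins pass. Its log2 signal was 9.46, 9.63, 8.95 and 9.67 in PH3 livers, against 8.15, 8.25, 8.71 and 8.46 in Air livers, and PH3 rat 140 lay nearest the Air livers. The rise was 1.03 ± 0.19, or 2.05-fold (adjusted p = 0.042). Tomm5, a small subunit of the same complex, had 10.47, 10.45, 10.47 and 10.64 in PH3 livers and 10.08, 9.87, 9.95 and 9.90 in Air livers (0.56 ± 0.10, adjusted p = 0.042). Mtx1, a metaxin that takes part in import and outer membrane assembly, had 9.58, 9.59, 9.46 and 9.71 in PH3 livers and 8.99, 9.01, 9.01 and 8.96 in Air livers. Its rise of 0.59 ± 0.08 (adjusted p = 0.020) came from 1 of 2 probe sets, and the other was lower by 0.31 (-0.31 ± 0.14, adjusted p = 0.36).

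The family of membrane translocases, picked by symbol after the values were seen, had 21 measured members, of which 2 rose and 0 fell. At an unadjusted p under 0.05, 12 were higher (57.1%, against 7.73% of all genes tested) and 0 lower (against 6.37%). The median change was 0.25, between 0.19 and 0.28 when any 1 array was left out. The mean level of the 21 was 9.07, 9.07, 8.96 and 9.15 in PH3 livers and 8.83, 8.72, 8.79 and 8.73 in Air livers, with every PH3 liver above every Air liver. Timm9 and Timm10, chaperones of the space between the membranes, lay just outside the threshold at 0.90 ± 0.19 and 0.54 ± 0.11 (adjusted p = 0.064 and 0.063).

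Mitochondrial gene expression was represented by Polrmt, Mrpl12 and mrpl11. Polrmt, the mitochondrial RNA polymerase, had 8.96, 8.83, 8.82 and 9.21 in PH3 livers and 8.12, 7.92, 8.05 and 8.22 in Air livers, a rise of 0.88 ± 0.16 (adjusted p = 0.042). Mrpl12, a ribosomal protein of the large subunit, had 10.76, 10.66, 10.57 and 10.94 in PH3 livers and 9.98, 10.11, 10.16 and 10.07 in Air livers (0.65 ± 0.12, adjusted p = 0.042). The PH3 and Air values of both genes were apart by more than the spread within a group. In the fit over all probe sets, the other probe sets of Mrpl12 gave 1.21 ± 0.16 and 0.11 ± 0.11 (adjusted p = 0.014 and 0.73). mrpl11, also of the large subunit, had 10.21, 10.29, 10.28 and 10.38 in PH3 livers and 9.84, 9.79, 9.88 and 9.81 in Air livers (0.46 ± 0.07, adjusted p = 0.032).

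Among 76 mitochondrial ribosomal proteins, picked by symbol after the values were seen, 2 rose and 0 fell, and the median change was 0.14, or 0.12 to 0.15 with 1 array left out. At an unadjusted p under 0.05, 27 were higher (35.5%, against 7.73% of all genes tested) and 0 lower. In 27, all 4 PH3 livers were above all 4 Air livers, against 5.69% of all genes tested. Their mean level was 9.60, 9.60, 9.58 and 9.66 in PH3 livers and 9.47, 9.41, 9.45 and 9.46 in Air livers, a difference small in size but without overlap. The 40 cytosolic ribosomal proteins had a median change of -0.0016, with 0 that passed and 1 each higher and lower at an unadjusted p under 0.05. Tfam, which packages mitochondrial DNA, had a log2 difference of 0.02 ± 0.08 (adjusted p = 0.95).

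For the target of phosphine, cytochrome c oxidase, 1 of 28 measured subunits and assembly factors rose and 0 fell. That gene, Cox10, makes the precursor of the heme A of the complex, and had 9.31, 9.42, 8.90 and 9.75 in PH3 livers, against 8.16, 8.03, 8.30 and 8.19 in Air livers (1.18 ± 0.19, or 2.26-fold, adjusted p = 0.032). All PH3 livers were above all Air livers, with PH3 rat 140 again the lowest. Over the 28 genes the median change was 0.06. At an unadjusted p under 0.05, 9 were higher (32.1%, against 7.73% of all genes tested) and 1 lower (3.57%, against 6.37%). There were 6 to 9 higher when 1 array was left out. Cox11, which delivers copper to the complex, had a difference of 0.89 ± 0.28 that did not pass (adjusted p = 0.16).

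Of 51 measured subunits of complexes I, II, III and V, 0 passed in limma. At an unadjusted p under 0.05, 18 (35.3%, against 7.73% of all genes tested) were higher and 0 lower. Their median change was 0.12. Without Air rat 138 the count of 18 was 11, and without any other array it was 12 to 17. The mean level was 11.27, 11.29, 11.31 and 11.30 in PH3 livers and 11.22, 11.17, 11.14 and 11.19 in Air livers, which did not overlap. Cyc1, the cytochrome c1 of complex III, was among the nearest to the threshold at 0.28 ± 0.06 (adjusted p = 0.073).

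Dlst and Kgd4, of the 2-oxoglutarate dehydrogenase complex of the citric acid cycle, also rose. No other gene of this complex was among those that passed. Dlst, its succinyl-transferring core, had 11.13, 10.97, 10.997 and 11.07 in PH3 livers and 10.44, 10.49, 10.46 and 10.62 in Air livers (0.54 ± 0.08, adjusted p = 0.032). Kgd4, a subunit that links the core to its dehydrogenase, had 10.39, 10.48, 10.45 and 10.39 in PH3 livers and 10.04, 9.82, 9.98 and 9.86 in Air livers (0.50 ± 0.08, adjusted p = 0.032). Glrx5, needed for iron-sulfur clusters, rose by 0.36 ± 0.06, and Slc25a3, the phosphate carrier that feeds ATP synthase, by 0.40 ± 0.07 (adjusted p = 0.042 for each). Glrx5 and Slc25a3 were the smallest changes that passed, in genes whose 4 Air arrays lay within 0.2 of each other on the log2 scale. Of the 37 SLC25 carriers picked by symbol, 1 rose and 0 fell. At an unadjusted p under 0.05, 8 were higher (21.6%, against 7.73% of all genes tested) and 3 lower (8.11%, against 6.37%).

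Fatty acid handling gave 2 genes that rose, Cyp4a8 and Cpt2, of 31 measured members of the list of fatty acid oxidation and PPAR targets. Cpt2, the inner membrane carnitine palmitoyltransferase, had 11.09, 11.02, 10.94 and 11.14 in PH3 livers, against 10.52, 10.33, 10.40 and 10.34 in Air livers (0.65 ± 0.11, adjusted p = 0.032). Its outer membrane partner Cpt1a, the entry point of long fatty acids, differed by as much, 0.65 ± 0.13, and missed the threshold (adjusted p = 0.062). The median change of the list was 0.12. At an unadjusted p under 0.05, 11 were higher (35.5%, against 7.73% of all genes tested) and 2 lower (6.45%, against 6.37%). Pdk4 and Angptl4, PPAR targets that are also induced by fasting, did not pass, with differences of -0.57 ± 0.30 and -0.22 ± 0.52 (adjusted p = 0.42 and 0.90).

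Cyp4a8, a cytochrome P450 of the family that hydroxylates the end of fatty acid chains, passed through the brighter of its probe sets. It had 7.61, 7.76, 8.44 and 7.35 in PH3 livers, against 6.66, 4.47, 5.05 and 5.03 in Air livers, and 3 of the 4 Air values lay within the range of nonspecific probe sets. The fitted change of 2.49 ± 0.39 (adjusted p = 0.032) therefore rests on Air levels that are not clearly apart from nonspecific signal, and no fold is given. Its second probe set gave 1.03 ± 0.20 in the fit over all probe sets (adjusted p = 0.058). Cyp17a1, the steroid 17-hydroxylase, had 8.29, 8.29, 8.60 and 8.68 in PH3 livers and 7.94, 6.93, 7.04 and 7.31 in Air livers (1.16 ± 0.20, adjusted p = 0.041). It was the 1 gene that passed of 36 measured cytochrome P450 genes and regulators, whose median change was -0.13. At an unadjusted p under 0.05, 2 were higher (5.56%, against 7.73% of all genes tested) and 7 lower (19.4%, against 6.37%).

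The other genes that rose had varied roles. Fuom, a fucose mutarotase, had 8.08, 8.11, 7.37 and 8.55 in PH3 livers and 6.49, 6.42, 6.69 and 6.62 in Air livers (1.48 ± 0.24, adjusted p = 0.032). Pstk, the kinase that prepares the transfer RNA for selenocysteine, rose by 0.87 ± 0.16 (adjusted p = 0.042), Wfdc3, a small secreted protein with protease inhibitor folds, by 1.02 ± 0.18 (adjusted p = 0.042), and C20h6orf136 by 0.63 ± 0.11 (adjusted p = 0.042). Mlx, the partner of the sugar-sensing factor ChREBP, had 10.00, 10.06, 9.97 and 10.01 in PH3 livers and 9.44, 9.43, 9.70 and 9.56 in Air livers (0.48 ± 0.08, adjusted p = 0.042), and its second probe set gave 0.48 ± 0.12 (adjusted p = 0.10). Cgref1, a calcium-binding protein of the secretory pathway, rose by 1.19 ± 0.21 (adjusted p = 0.042), with all 8 of its values, from 3.96 to 5.69, below the highest nonspecific signal of the 8 arrays.

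Of the 7 genes that fell, Rarres1 was the most stable. Rarres1, a retinoid-responsive gene related to carboxypeptidase inhibitors, had 10.03, 9.85, 10.26 and 10.22 in PH3 livers, against 11.04, 10.995, 10.80 and 11.10 in Air livers. The groups were well apart, and the change of -0.90 ± 0.10, or 1.86-fold lower, had an adjusted p of 0.0064 and at most 0.045 without any 1 array. Gbp7, a guanylate-binding protein induced by interferons, had 8.78, 8.94, 8.66 and 9.03 in PH3 livers and 10.06, 9.89, 9.58 and 9.80 in Air livers (-0.98 ± 0.13, adjusted p = 0.017), and passed in 5 of the 8 fits without 1 array.

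Slc10a1 encodes NTCP, the transporter through which hepatocytes take up bile acids from blood. It had 11.56, 11.38, 11.65 and 11.47 in PH3 livers, against 12.13, 12.05, 11.84 and 11.90 in Air livers (-0.47 ± 0.08, or 1.38-fold lower, adjusted p = 0.042). Tc2n, a protein with C2 domains, had 7.56, 7.997, 7.90 and 7.497 in PH3 livers and 8.80, 8.47, 8.60 and 8.54 in Air livers (-0.86 ± 0.13, adjusted p = 0.030). Adap2, which acts on Arf GTPases, fell by 0.51 on the log2 scale (-0.51 ± 0.09, adjusted p = 0.042).

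Shank2, a scaffold protein best known at synapses, had 6.90, 7.15, 6.47 and 6.35 in PH3 livers and 7.55, 8.37, 7.94 and 8.31 in Air livers (-1.32 ± 0.21, adjusted p = 0.032). Its other probe set went the opposite way, 0.23 ± 0.20 (adjusted p = 0.66), so the fall holds for 1 of its 2 probe sets. Rufy3, a protein of vesicle transport, fell by 1.13 on the log2 scale (-1.13 ± 0.20, adjusted p = 0.042), with PH3 values of 4.52 to 4.62 and Air values of 5.24 to 6.13, all 8 below the highest nonspecific signal of the 8 arrays.

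**Figure D3:**
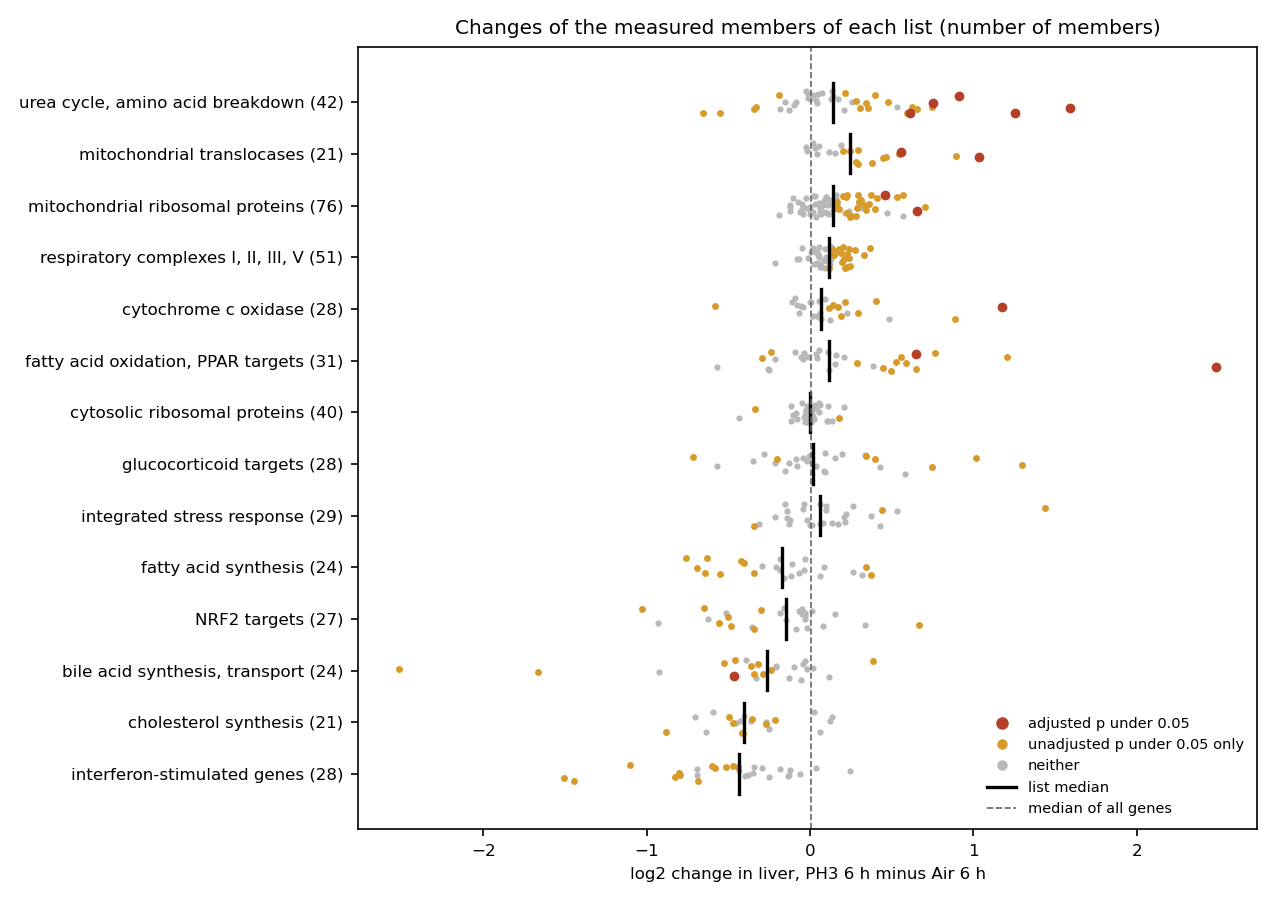
Each point is the log2 change in liver (PH3 6 h minus Air 6 h, x axis) of a measured member of a gene list, with the list median as a black bar and the median of all genes as a dashed line. Medians lie between 0.06 and 0.25 for the mitochondrial lists and the urea cycle list, near 0 for cytosolic ribosomal proteins and glucocorticoid targets, and between -0.15 and -0.44 for the 5 lists at the bottom.

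Among 24 measured genes of bile acid synthesis and transport, 0 rose and 1 fell, the median change was -0.26 (-0.30 to -0.22 with 1 array left out), and 10 were lower (41.7%, against 6.37% of all genes) and 1 higher at an unadjusted p under 0.05. Their mean level was 9.73, 9.48, 9.44 and 9.42 in PH3 livers, below the 9.88, 9.98, 9.84 and 9.89 of Air livers. Nr0b2, the repressor SHP that bile acids induce through FXR, differed most between rats, with 9.60, 7.27, 5.19 and 5.22 in PH3 livers and 8.89, 9.59, 9.36 and 9.50 in Air livers (-2.52 ± 0.80, adjusted p = 0.17). PH3 rat 128 was the highest of all 8 livers and 3 PH3 livers were below all Air livers. Abcg5, a sterol exporter into bile, had 6.25, 5.31, 6.41 and 5.89 in PH3 livers and 7.41, 8.17, 7.41 and 7.54 in Air livers (-1.67 ± 0.44, adjusted p = 0.11). Some PH3 values of Nr0b2 and Abcg5 lay below 6.26, the highest nonspecific signal of the 8 arrays. Cyp7a1, the rate-limiting enzyme of bile acid synthesis, had 12.05, 12.11, 10.01 and 12.05 in PH3 livers and 12.08, 11.44, 11.58 and 11.63 in Air livers, a difference of -0.13 ± 0.40 (adjusted p = 0.92) in which PH3 rat 140 alone was low.

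Among the lists of cholesterol synthesis, fatty acid synthesis and NRF2 targets, 0 genes passed and medians were below 0. Of 21 cholesterol genes 0 passed, and 8 were lower (38.1%, against 6.37% of all genes tested) and 0 higher at an unadjusted p under 0.05. The median was -0.41, but the mean levels of the groups overlapped, with 9.45 to 10.33 in PH3 livers and 9.93 to 10.44 in Air livers. The median was -0.23 without PH3 rat 141, where 2 were lower at an unadjusted p under 0.05, and -0.56 without PH3 rat 134, where 15 were. The count was also 2 without Air rat 156, 4 without Air rat 138 or PH3 rat 128, and 5 without PH3 rat 140. Of 24 fatty acid synthesis genes 0 passed, and 8 were lower (33.3%) and 2 higher (8.33%) at an unadjusted p under 0.05 (median -0.17). There were 2 lower when PH3 rat 128 was left out, 3 when Air rat 138 was, and 4 when PH3 rat 141 or Air rat 156 was. Of 27 NRF2 targets, the genes of the main oxidative stress response, 0 passed and the median was -0.15. At an unadjusted p under 0.05, 7 were lower (25.9%) and 1 higher (3.70%). Gclm, a subunit of the enzyme that limits glutathione synthesis, was just outside the threshold (9.47, 9.28, 9.67 and 8.91 in PH3 livers, against 10.41, 10.71, 10.51 and 9.81 in Air livers, -1.03 ± 0.20, adjusted p = 0.054), and its partner subunit Gclc had -0.65 ± 0.14 (adjusted p = 0.064). Hmox1, another NRF2 target, differed by -0.02 ± 0.15 (adjusted p = 0.97, 95% interval -0.35 to 0.31).

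Interferon-stimulated genes had the lowest median of the lists, -0.44, and -0.51 to -0.42 with 1 array left out. Of 28 measured, 0 passed, and 12 were lower (42.9%, against 6.37% of all genes tested) and 0 higher at an unadjusted p under 0.05. There were 8 to 15 lower when 1 array was left out. Their mean level was 7.86, 7.86, 7.73 and 7.88 in PH3 livers, against 8.51, 8.43, 8.04 and 8.35 in Air livers, so that all PH3 livers were below all Air livers. Mx1, an antiviral GTPase, had 5.39, 5.92, 5.40 and 5.33 in PH3 livers and 7.51, 7.28, 6.51 and 6.53 in Air livers (-1.45 ± 0.36, adjusted p = 0.096). Its PH3 values lay below 6.26, the highest nonspecific signal of the 8 arrays. In a fit of 4 tissues at 6 h, the median change of the list was -0.44 in heart, -0.51 in kidney and -0.23 in brain, which come largely from the same rats, and the difference of liver from each tissue passed for 0 of the 28.

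**Figure D4:**
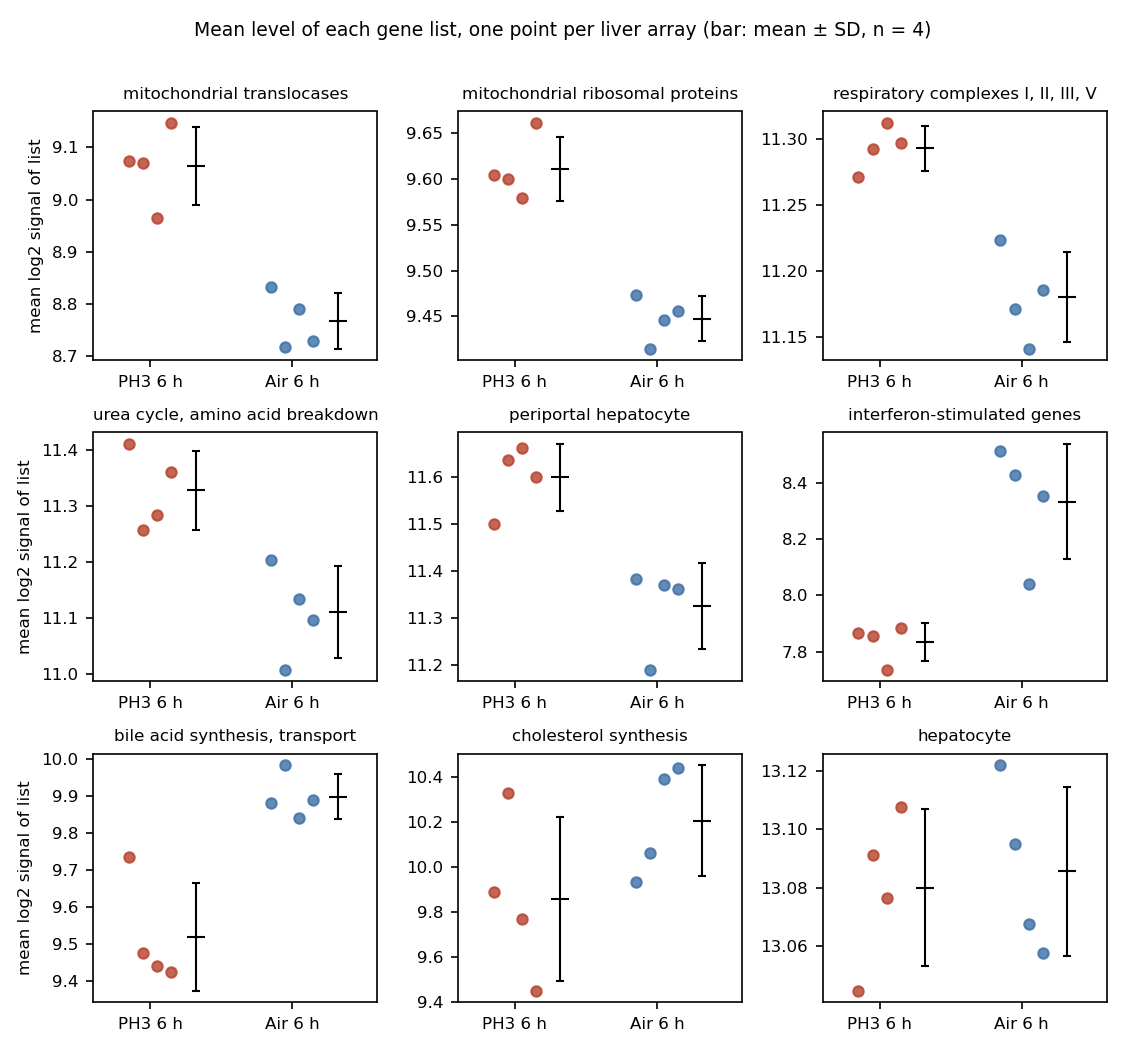
Mean log2 signal of the measured genes of 9 lists (y axis, a separate scale for each list) is drawn for the 4 PH3 livers (red, left) and the 4 Air livers (blue, right), with the mean ± SD beside each group. The 8 arrays divide by exposure for the translocases, mitochondrial ribosomal proteins, respiratory complexes, urea cycle, periportal, interferon and bile acid lists, and overlap for cholesterol synthesis and hepatocyte markers.

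Genes known from stress responses of other organs gave no call in liver. Gdf15 and Fgf21, hormones released under mitochondrial stress, differed by 0.21 ± 0.37 and -0.04 ± 0.58 (adjusted p = 0.85 and 0.99). Gdf15 had 5.24, 5.06, 6.87 and 5.35 in PH3 livers and 5.20, 5.71, 4.67 and 6.08 in Air livers, with PH3 rat 140 alone above the Air range. For Fgf21, 2 PH3 livers were near the top and 2 below the Air range (4.59, 4.42, 6.51 and 6.54 in PH3 livers, against 5.18, 6.64, 4.98 and 5.43 in Air livers). Most values of both genes lay below 6.26, the highest nonspecific signal of the 8 arrays. The lack of a call is therefore not a measured lack of induction. Of 29 measured genes of the integrated stress response 0 passed, with 2 higher (6.90%) and 1 lower (3.45%) at an unadjusted p under 0.05 and a median of 0.06. Of 22 genes of endoplasmic reticulum stress 0 passed, with 1 higher (4.55%) and 3 lower (13.6%) at an unadjusted p under 0.05. Of 20 heat shock proteins 0 passed, and 4 were higher (20.0%) and 0 lower at an unadjusted p under 0.05. The shares over all genes tested were 7.73% higher and 6.37% lower.

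Glucocorticoid targets gave no call either. Of 28 measured 0 passed, and the median was 0.02. At an unadjusted p under 0.05, 5 were higher (17.9%, against 7.73% of all genes tested) and 2 lower (7.14%, against 6.37%). There were 2 higher without Air rat 132 or PH3 rat 141. Cdkn1a, the cell cycle inhibitor p21, had 7.29, 5.96, 6.55 and 8.67 in PH3 livers and 6.12, 5.39, 5.29 and 6.46 in Air livers, and its difference of 1.30 ± 0.52 did not pass (adjusted p = 0.27). Fkbp5, a chaperone of the glucocorticoid receptor, had 7.08, 6.72, 6.78 and 8.44 in PH3 livers and 6.89, 7.01, 6.81 and 6.95 in Air livers, in which PH3 rat 141 alone was high (0.34 ± 0.34, adjusted p = 0.71). Its second probe set gave 1.62 ± 0.46 in the fit over all probe sets (adjusted p = 0.14). Tat and Pck1, glucocorticoid-induced liver enzymes, differed by 0.40 ± 0.15 and 0.09 ± 0.11 (adjusted p = 0.25 and 0.76). Igfbp1, Myc, Atf3, Mt2A, Tnfrsf12a, Errfi1, Tmem252 and Depp1 did not pass either, with differences between -0.08 and 0.58.

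Inflammation was likewise without a call. Of 31 inflammatory genes 0 passed, with 2 higher and 2 lower (6.45% each) at an unadjusted p under 0.05. Of 26 positive acute phase proteins 0 passed, again with 2 higher and 2 lower (7.69% each). Both were near the shares over all genes tested, 7.73% higher and 6.37% lower. Il1b and Ccl2 differed by -0.09 ± 0.22 and -0.10 ± 0.26 (adjusted p = 0.89 and 0.91). Il1rn, the interleukin-1 receptor antagonist, had 6.46, 6.72, 7.06 and 8.15 in PH3 livers and 5.66, 4.78, 5.70 and 6.27 in Air livers (1.49 ± 0.36, adjusted p = 0.093). The SE of a log2 change had a median of 0.142 over all genes tested, and a difference that did not pass is not shown to be absent.

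Markers of liver zones and cell types were set beside these lists, because in bulk tissue fewer cells of a type and less RNA per cell cannot be told apart. Hepatocytes near the portal vein carry much of the urea cycle and amino acid breakdown, and of 15 periportal markers 2 rose, Agxt and Asl, which the amino acid list also holds. Ass1, Arg1, Cps1 and Hal, named above with the urea cycle and amino acid genes, are periportal markers too. The periportal counts and levels are thus not a reading separate from that list. At an unadjusted p under 0.05, 8 were higher (53.3%, against 7.73% of all genes tested) and 2 lower (13.3%, against 6.37%). The mean level of the 15 was 11.50 to 11.66 in PH3 livers and 11.19 to 11.38 in Air livers. Of 17 pericentral markers 0 passed, with 0 higher and 4 lower (23.5%) at an unadjusted p under 0.05. The mean level of the 17 was 9.54 to 9.97 in PH3 livers and 9.80 to 10.02 in Air livers. Glul, which marks the last row of hepatocytes at the central vein, differed by -0.10 ± 0.13 (adjusted p = 0.78). The hepatocyte markers as a whole had a median of -0.02, with 0 of 19 that passed and 1 each higher and lower at an unadjusted p under 0.05.

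Among the other cells of liver, 16 markers of Kupffer cells and macrophages had 0 that passed, 3 lower and 0 higher at an unadjusted p under 0.05, and mean levels of 9.45 to 9.53 in PH3 livers and 9.43 to 9.84 in Air livers. The overlap came from Air rat 138 at 9.43, with the other Air livers at 9.77 to 9.84, and without that array 7 markers were lower at an unadjusted p under 0.05. Clec4f, which defines Kupffer cells, was 10.98 to 11.19 in PH3 livers and 10.90 to 11.39 in Air livers. No marker passed of neutrophils (2 of 11 higher at an unadjusted p under 0.05), sinusoidal endothelium (0 of 14), stellate cells and fibroblasts (3 of 18 lower, and 5 without PH3 rat 140), cholangiocytes (2 higher and 2 lower of 13), T and natural killer cells (3 of 21 lower, and 1 without Air rat 132, Air rat 156, PH3 rat 128 or PH3 rat 141) or red cell precursors (0 of 11). Nor did any pass of pancreas (0 of 13), gut (0 of 11) or muscle and heart (0 of 14). The part of the periportal, pericentral and macrophage levels in the results above was not tested.

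The genes that changed in liver were then compared with their exposure effect in heart, kidney and brain at 6 h, in 1 limma fit over the 32 arrays of these tissues (4 PH3 and 4 Air each). The effect in liver minus that in heart passed for 353 of 13439 genes (2.63%), with the liver effect above in 224 (1.67%) and below in 129 (0.96%). Against kidney the difference passed for 69 genes (0.513%), with 32 above and 37 below, and against brain for 46 (0.342%), with 39 above (0.29%) and 7 below. With the arrays of liver and 1 other tissue alone, the counts were 247 for heart, 2 for kidney, with the liver effect above in 0 of them, and 14 for brain. The kidney count was 36 without Air rat 132 and 38 without PH3 rat 141. The brain count was 29 without PH3 rat 128, 25 without Air rat 132, 112 without PH3 rat 140 and 18 without PH3 rat 141. In this fit the effect itself passed for 3.65% of genes in liver, 2.3% in heart, 0.871% in kidney and 0.0595% in brain. The liver share is 490 genes, against 32 in the fit of the liver arrays. Since the 25 genes that rose and the 7 that fell were named from the same liver arrays, their counts below are a description.

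Of the 25 genes that rose in liver, 21 had a larger effect in liver than in heart, 8 than in kidney and 15 than in brain by the test of the difference. With the rat as a block, Glrx5 also passed against heart, Dlst and Slc25a3 against kidney and C20h6orf136 against brain. Their median effect was 0.75 in liver in this fit, against -0.11 in heart, 0.16 in kidney and 0.02 in brain. In heart 18 of the 25 effects were below 0, while in kidney 22 of 25 were above 0, of which 1 passed there, Mlx at 0.43 (adjusted p = 0.012). The 19 hepatocyte markers had median effects of 0.14 in heart, 0.49 in kidney and 0.71 in brain, against -0.02 in liver. Of these markers, 0 passed in heart, kidney or brain. The part of these marker effects in the kidney and brain effects of other genes, and in their differences from liver, was not tested. The difference from all 3 tissues passed for 7 genes, Cyp4a8, Fuom, Agxt, Cgref1, Cyp17a1, Pstk and Kgd4, none of which kept the call against kidney with the 16 arrays of liver and kidney alone. For Agxt the effect was 1.26 in liver, -0.0048 in heart, 0.19 in kidney and 0.23 in brain. Tomm40 had 1.03 in liver, -0.11 in heart, 0.40 in kidney and -0.10 in brain, and its difference from kidney did not pass (0.64, adjusted p = 0.20). Likewise Cox10 had 1.18 in liver, -0.28 in heart, 0.43 in kidney and 0.025 in brain, with differences of 1.46 from heart (adjusted p = 0.00026), 0.74 from kidney (adjusted p = 0.12) and 1.15 from brain (adjusted p = 0.0065).

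For the 7 genes that fell, the difference passed for Shank2 against heart (-1.17, adjusted p = 0.042) and for 0 against kidney or brain. Gbp7 was lower in kidney too, -0.95 (adjusted p = 0.010), beside -0.98 in liver, and the difference between the tissues was -0.03 (adjusted p = 0.996). Rarres1, which had an adjusted p of 0.0064 in the liver fit, did not pass in the fit of 4 tissues (-0.90 ± 0.42, adjusted p = 0.32), where the spread of all tissues sets the error.

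By list, the difference of liver from heart passed above 0 for 7 of 76 mitochondrial ribosomal proteins, 6 of 21 translocases and 4 of 28 cytochrome c oxidase genes. It also passed above 0 for 3 of 51 subunits of the other complexes and 4 of 42 genes of the urea cycle and amino acid breakdown. It passed below 0 for no gene of these lists. The shares over all genes were 1.67% above and 0.96% below. The ribosomal and translocase families were picked after the liver values were seen, and the difference uses the same liver arrays. Such counts by list are therefore a description. Against kidney, 2 translocases and 2 urea cycle or amino acid genes passed above 0, and 0 mitochondrial ribosomal proteins, against 0.238% of all genes. With the 16 arrays of liver and kidney alone, 0 genes passed with the liver effect above, so none of these calls held there. The median effect of the mitochondrial ribosomal proteins was -0.06 in heart, 0.09 in kidney and 0.04 in brain. Of a panel of 20 stress genes, the liver effect was below that of heart for 4, below that of kidney for 1 and different from that of brain for 0. These were, against heart, Ccl2 (-3.42, adjusted p = 0.0019), Mt2A (-2.52, adjusted p = 0.0063), Pdk4 (-2.19, adjusted p = 0.038) and Tnfrsf12a (-2.12, adjusted p = 0.016), and, against kidney, Gdf15 (-2.18, adjusted p = 0.041). None of these genes passed in liver itself. Their liver changes were -0.10 for Ccl2, 0.15 for Mt2A, -0.57 for Pdk4, 0.12 for Tnfrsf12a and 0.21 for Gdf15.

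**Figure D5:**
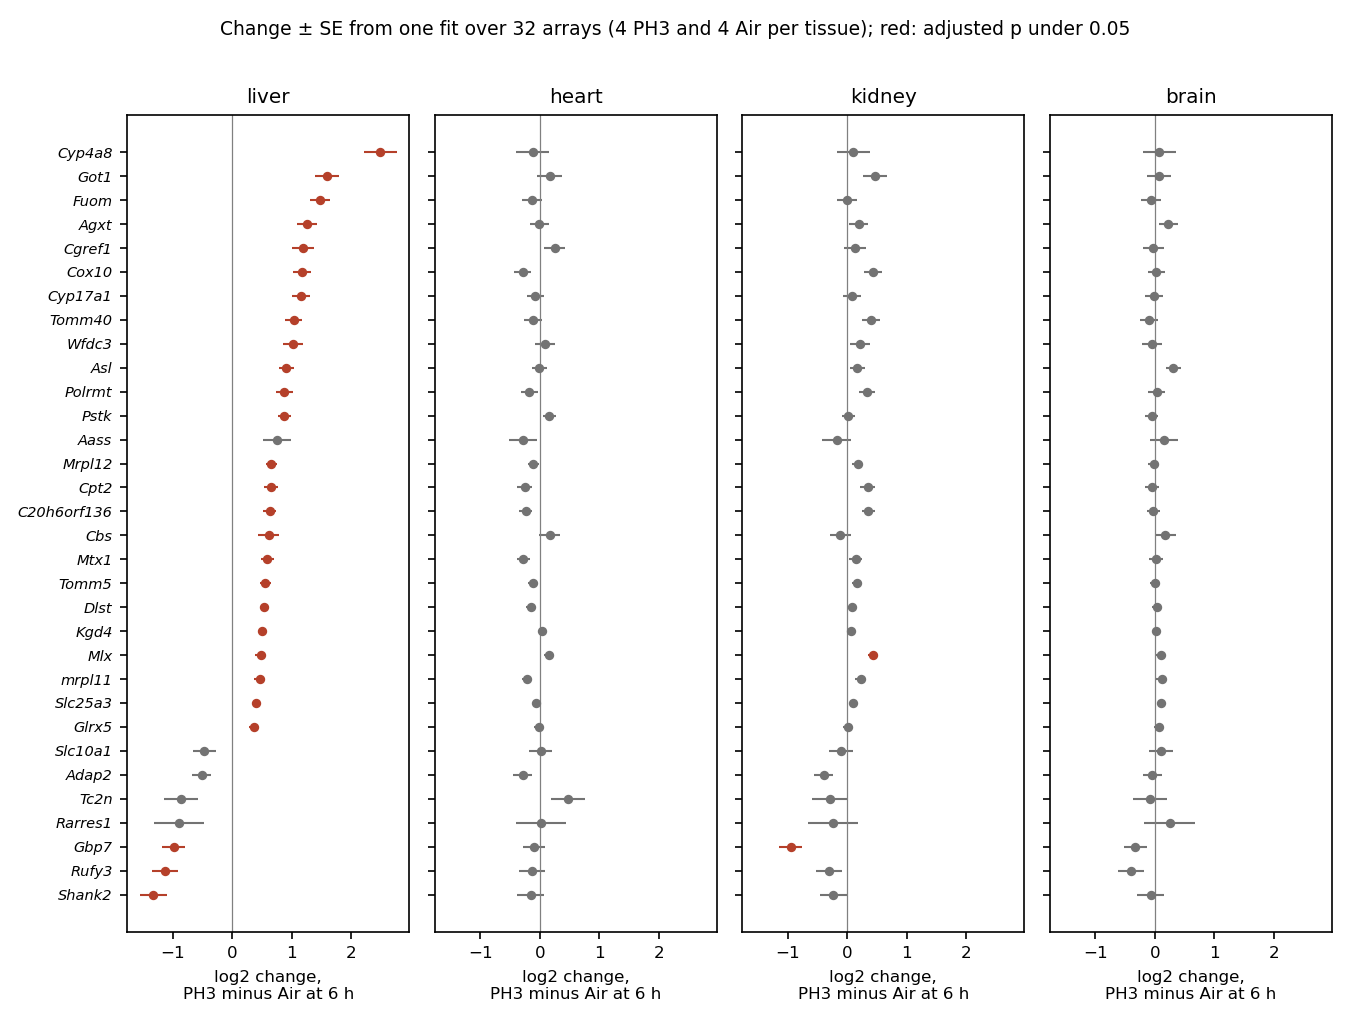
The log2 change (PH3 minus Air at 6 h, x axis) ± SE is drawn for the 32 genes that passed in liver (rows) in liver, heart, kidney and brain, from 1 fit over 32 arrays, with red for an adjusted p under 0.05 in that tissue. Points lie away from 0 in liver, mostly just below 0 in heart and just above 0 in kidney for the genes that rose, and Mlx and Gbp7 are the 2 that pass in another tissue.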

How the data were processed

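The deposited values are log2 signals of 31139 probe sets on 125 arrays. Per the submitters' processing notes, the authors used RMA (background correction, quantile normalisation and summary of the probes of a set), Affymetrix Expression Console and Partek, with no versions given. No genome build is named, and no gene coordinates are printed beyond RefSeq promoters of GRCr8. Probe sets were named by the platform annotation: 19069 had 1 symbol, 572 several and 11498 none.

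Groups were taken from the labels. limma 3.58.1 in R 4.3.3 fitted the 11 liver arrays (1 coefficient per group, eBayes with a trend), with Benjamini-Hochberg adjustment over 13439 genes and a threshold of 0.05. Differences between tissues were contrasts in a fit of 32 arrays. Rats were paired across tissues by the numbers in the labels, where PH3 rat 134 has no brain array. Deviations from the group means in liver correlated with those of the same rat at 0.05 to 0.15 in heart, 0.12 to 0.30 in kidney and -0.01 to 0.11 in brain, and a fit with the rat as a block was an alternative. Intervals are 95%. Arrays have no read depth, and their number limits precision. In the liver fit each array was taken as a separate animal by its rat number, so its p-values measure the spread between rats. In the fit of 32 arrays most rats gave arrays of several tissues. These arrays were treated as independent there, and the error was pooled over the tissues. Both fits were tested on simulated data with known changes. The liver fit recovered 37.3% of log2 changes of 0.5, 85.1% of 1 and 97.0% of 2, with 6 false among 152 calls. For liver minus heart the shares were 34.3%, 67.2% and 89.4%, with 6 false among 133 calls. The simulated noise was independent between arrays and had the liver spread in every tissue, unlike the 32 arrays. It was also independent between genes, and in the liver fit the 3 h arrays were given the spread of the 6 h groups. In the data, 161 genes passed without the 3 h arrays and 32 with them. The shares recovered therefore hold for the simulated setting only.

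The genes, lists and comparisons were chosen with earlier results of these data known. Genes were named as the up to 15 largest rises and falls that passed without overlap of the groups, up to 4 passing members of each list, a panel of stress genes, and up to 6 passing genes for each tissue difference. The remaining genes that passed, list members that did not, and families picked by symbol were chosen after their values were seen. Lists were described by counts and medians, with no set test.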

Additional observations from a re-analysis of the deposited data

Results flagged for a closer look

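Among the 104 groups of 4 arrays examined for the named genes, 4 had 1 array far from the other 3 (3.85%, where chance alone gives about 1 in 20). PH3 rat 140 was high for Gdf15 at 6.87 on the log2 scale, with the next array at 5.35, and low for Cyp7a1 at 10.01, with the next at 12.05. PH3 rat 141 was high for C20h6orf136 at 9.03, with the next at 8.75, and for Tomm5 at 10.64, with the next at 10.47.

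The exposure effect differed between liver and heart by the test of the difference (adjusted p of 0.042 at most) for 26 named genes. Most of the named genes were chosen because they passed in the same liver arrays, so these counts are a description. Over all genes tested, the difference passed for 2.63% against heart, 0.513% against kidney and 0.342% against brain. The log2 difference of liver minus heart was 2.61 for Cyp4a8, 1.61 for Fuom, 1.46 for Cox10, 1.43 for Got1, 1.26 for Agxt, 1.23 for Cyp17a1, 1.15 for Tomm40, 1.05 for Polrmt, 0.94 for Cgref1, 0.93 for Wfdc3, 0.92 for Asl, 0.90 for Cpt2, 0.87 for C20h6orf136 and 0.87 for Mtx1. It was 0.76 for Mrpl12, 0.71 for Pstk, 0.68 for Dlst, 0.68 for mrpl11, 0.68 for Tomm5, 0.47 for Slc25a3 and 0.46 for Kgd4, and on the other side -1.17 for Shank2, -2.12 for Tnfrsf12a, -2.19 for Pdk4, -2.52 for Mt2A and -3.42 for Ccl2. Of the genes on the other side, only Shank2 also passed in the fit of the liver arrays. Liver minus kidney (adjusted p of 0.048 at most) was 2.38 for Cyp4a8, 1.48 for Fuom, 1.08 for Cyp17a1, 1.07 for Agxt, 1.07 for Cgref1, 0.86 for Pstk, 0.74 for Asl, 0.43 for Kgd4 and -2.18 for Gdf15. With the 16 arrays of liver and kidney alone, 2 genes passed, with the liver effect above in 0 of them. Liver minus brain (adjusted p of 0.048 at most) was 2.41 for Cyp4a8, 1.54 for Fuom, 1.53 for Got1, 1.22 for Cgref1, 1.17 for Cyp17a1, 1.15 for Cox10, 1.13 for Tomm40, 1.06 for Wfdc3, 1.03 for Agxt, 0.92 for Pstk, 0.85 for Polrmt, 0.67 for Mrpl12, 0.56 for Tomm5, 0.51 for Dlst and 0.49 for Kgd4.

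Outside the genes compared, 6 of 11979 probe sets without 1 gene symbol passed in liver, 3 of them higher and 3 lower in PH3 livers.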

How the results depend on the processing

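The direction of all 32 genes that passed held under every alternative run, although another probe set of Mtx1 and of Shank2 ran the opposite way, but the number of calls did not. It was 161 with the 8 arrays at 6 h alone, 91 with array weights, 49 with a robust prior, 1 without a variance trend, and 2 to 64 with 1 array left out. In the fit of 32 arrays of 4 tissues, 490 genes passed for the same liver contrast. Centring, quantile normalisation again, a filter on low signal, all probe sets or the mean of a gene's probe sets gave counts within 1.5 times the 32. The liver minus kidney count of 69 became 2 with the 2 tissues alone, 144 with array weights and 36 to 100 without 1 array; the liver minus brain count of 46 became 14, 144 and 18 to 112; the liver minus heart count of 353 stayed within 1.5 times, at 237 to 400 without 1 array. No paired analysis was possible because no rat is in both the PH3 and the Air group. Across tissues, 1 rat gave several arrays: the replicate block for the rat (consensus correlation 0.055) gave 462, 85 and 61 genes for heart, kidney and brain. Beyond the 4 calls it added among the named genes, it changed no call of a gene that passed in liver.

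Genes that did not pass changed sign without 1 array, with log2 differences of -0.20 to 0.44 for Gdf15, -0.38 to 0.32 for Fgf21, -0.10 to 0.12 for Hmox1, -0.015 to 0.30 for Mt2A, -0.057 to 0.52 for Fkbp5, -0.31 to 0.39 for Cyp7a1, -0.029 to 0.69 for Myc, -0.37 to 0.43 for Atf3, -0.28 to 0.053 for Il1b, -0.32 to 0.055 for Ccl2, -0.76 to 0.23 for Angptl4, -0.023 to 0.27 for Tnfrsf12a, -0.25 to 0.10 for Tmem252 and -0.12 to 0.33 for Depp1. Tmem252 was also 0.014 with array weights. The cause of these shifts was not tested.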
